A study of Mus musculus with 56 samples.

Results

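Of the 324 gene names of the form Zfp followed by digits that had any peak in the files, 137 carried an RNAPII-pS5 peak annotated as promoter-TSS in all 4 RNAPII-pS5 samples of the 1 hr IL-4 experiment, and these 137 zinc finger genes are described here. Zfp36, whose product tristetraprolin binds mRNA, was left out of the set. The other genes were taken by name alone, and their products were not checked for DNA binding. Without the condition on the name, 5743 of the 20352 gene names in the series met the same rule, so that 5606 other genes with promoter RNAPII-pS5 in the same 4 samples served for comparison. A further 30 Zfp genes had such a peak in 3 of the 4 samples, 30 in 2 samples and 25 in 1 sample.

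All samples were bone marrow-derived macrophages (BMDMs) from wild-type C57BL/6 mice of 8 to 12 weeks, differentiated for 6 days in L929 supernatant, a source of MCSF, the growth factor that drives macrophage differentiation. In the 1 hr experiment, untreated BMDMs (ctrl) were compared with BMDMs given IL-4 (20 ng/ml) for 1 hr, and ChIP-seq in 2 samples per group mapped both RNAPII forms, the histone mark H3K27Ac, the acetyltransferase p300, the deacetylases HDAC1, HDAC2 and HDAC3, and PU.1. In the pretreatment experiment, RNAPII-pS5, RNAPII-pS2 and p65 were mapped in 2 samples of each of 4 groups. These were ctrl/ctrl (no cytokine), IL-4 PT/ctrl (IL-4 for 24 hr), ctrl/LPS (LPS, 100 ng/ml in the labels, for 1 hr) and IL-4 PT/LPS (IL-4 for 24 hr, then LPS for 1 hr). The study describes its ChIP-seq samples as independent biological replicates, without saying for each pair whether the animal or the culture was separate. The p-values below therefore measure the spread between the 2 samples of each group. Where neither sample of a group had a peak, both took the same lowest score before centring, and that group added no measured spread. A peak also cannot tell a change in the share of cells that carry the protein from a change in the amount per cell.

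Many zinc finger genes encode proteins with tandem fingers, each of which contacts a few bases of DNA. These proteins form the largest family of transcription factors in mammals. Many of the proteins also carry a KRAB domain, which recruits the corepressor Trim28 and, through it, the histone methyltransferase Setdb1, heterochromatin proteins and deacetylase complexes. They are best known for the silencing of transposable elements, and the genes lie in clusters that arose by duplication. RNAPII-pS5 is the form of RNA polymerase II found at initiation and close to the promoter, RNAPII-pS2 is the elongating form, H3K27Ac marks active promoters and enhancers, PU.1 is the lineage-determining factor of macrophages, p300 is an acetyltransferase, HDAC1 to HDAC3 are deacetylases, and p65 is the NF-kB subunit that enters the nucleus after LPS.

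The promoters of 5 members are printed because the results below turn on them: Zfp59, Zfp825 and Zfp655 lacked RNAPII-pS5 under LPS alone and had it when IL-4 came first, Zfp821 had its lowest RNAPII-pS5 when IL-4 came before LPS, and Zfp963 had the highest mean RNAPII-pS5 score of the set. Each runs 5′ to 3′ on the strand of the gene from 250 bases before to 50 bases after the RefSeq start (GRCm38.p6). Capitals mark matches, on either strand, to the letters of a GC box, an ETS site, an NRF1, Kaiso or YY1 site, a TATA box, a CRE or an E-box.
Zfp59 (chr7:27838334-27838633, + strand; ETS and E-box): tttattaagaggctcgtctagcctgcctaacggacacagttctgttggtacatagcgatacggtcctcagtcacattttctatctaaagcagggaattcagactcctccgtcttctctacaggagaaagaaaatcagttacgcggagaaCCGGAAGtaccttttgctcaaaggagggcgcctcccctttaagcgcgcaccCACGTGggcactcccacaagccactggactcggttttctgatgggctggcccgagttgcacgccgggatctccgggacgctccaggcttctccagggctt
Zfp825 (chr13:74493912-74494211, − strand; ETS and GC box, which overlap at 1 place): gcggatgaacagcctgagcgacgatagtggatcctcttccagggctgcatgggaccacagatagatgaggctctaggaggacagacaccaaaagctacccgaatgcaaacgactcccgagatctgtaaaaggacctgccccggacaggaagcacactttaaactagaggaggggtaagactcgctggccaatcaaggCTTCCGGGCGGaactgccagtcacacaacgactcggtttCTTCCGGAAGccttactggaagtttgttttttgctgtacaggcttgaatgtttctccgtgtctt
Zfp655 (chr5:145231492-145231791, + strand; GC box and ETS): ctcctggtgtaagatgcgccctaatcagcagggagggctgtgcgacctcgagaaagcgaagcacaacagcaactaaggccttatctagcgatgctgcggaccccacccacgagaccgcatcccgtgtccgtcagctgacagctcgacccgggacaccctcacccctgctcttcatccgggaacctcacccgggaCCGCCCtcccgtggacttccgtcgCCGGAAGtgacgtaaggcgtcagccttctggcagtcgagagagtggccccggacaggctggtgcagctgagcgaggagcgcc
Zfp821 (chr8:109705258-109705557, + strand; GC box): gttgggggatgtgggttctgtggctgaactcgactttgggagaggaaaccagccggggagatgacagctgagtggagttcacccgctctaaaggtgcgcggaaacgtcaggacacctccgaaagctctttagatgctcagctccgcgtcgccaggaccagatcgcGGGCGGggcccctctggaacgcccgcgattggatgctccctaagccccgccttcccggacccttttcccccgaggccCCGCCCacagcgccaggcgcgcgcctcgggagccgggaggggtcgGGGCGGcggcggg
Zfp963 (chr8:69749913-69750212, − strand; GC box): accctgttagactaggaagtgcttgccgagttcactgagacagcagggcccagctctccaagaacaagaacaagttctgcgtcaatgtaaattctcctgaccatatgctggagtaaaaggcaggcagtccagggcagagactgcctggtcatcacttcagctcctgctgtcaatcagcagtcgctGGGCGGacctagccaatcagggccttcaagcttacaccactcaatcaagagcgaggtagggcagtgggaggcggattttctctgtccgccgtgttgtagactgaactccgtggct

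None of the 5 windows held a TATA box of the letters TATAAA, and 3 of them held the ETS letters CCGGAAG on at least 1 strand. A RefSeq promoter was matched for 112 of the 137 members. Their median GC content was 57.0%, which lay between the 62.3% of 4598 other genes of the rule and the 52.7% of all 27025 promoters. The ratio of observed to expected CpG followed the same order, at 0.726, 0.816 and 0.389. A GC box (GGGCGG) was found in 51.8% of the members, 70.7% of the other genes and 35.9% of all promoters. The ETS letters were found in 22.3%, 22.4% and 9.12% of these, the NRF1 letters (GCATGCGC) in 7.14%, 6.70% and 2.81%, and the TATA box in 6.25%, 5.68% and 14.2%. The letters of a CRE (TGACGTCA) stood in 6.25% of the members, 4.13% of the other genes and 1.88% of all promoters. An E-box (CACGTG) stood in 8.04%, 11.03% and 7.24%, the YY1 letters (AAGATGGC) in 4.46%, 5.76% and 2.88%, and the Kaiso letters (CTCGCGAG) in 0.893%, 2.55% and 0.958%. For the factors mapped or activated in this series, the PU.1 letters (GAGGAAGT) stood in 2.68%, 3.59% and 3.28%, the STAT letters (TTCNNNNGAA) in 7.14%, 5.05% and 6.99%, and the NF-kB letters (GGAATTTCC) in 0.893%, 0.348% and 0.322%. Thus, in the letters searched, the members' promoters had fewer GC boxes than the other genes and a like share of ETS matches. These shares describe letters in a window and carry no test. Another gene's start lay within 1000 bp of the start of 15 of the 112 members (13.4%), among them Zfp131, Zfp142, Zfp84 and Zfp869, and a peak at such a promoter cannot be assigned to 1 of the 2 genes.

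The members lay on 17 chromosomes, with 34 on chromosome 7, 18 on chromosome 17, and 15 each on chromosomes 8 and 13. Among genes with a Zfp name in the RefSeq promoters, membership was as frequent inside as outside gene clusters. Members without such an entry were left out of this count, among them the 6 on chromosome 18, so some groups may be incomplete. Of the Zfp genes in groups of at least 3 with gaps of at most 250000 bp, 60 of 164 (36.6%) were members, compared with 51 of 142 (35.9%) of those outside such groups. In the group at chr8:69625175-69774911, all 5 genes (Zfp868, Zfp964, Zfp869, Zfp963 and Zfp866) were members.

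The identity of the cells was checked on the same RNAPII-pS5 lists. Of 8 macrophage markers, none had a promoter-TSS peak in all untreated samples of both experiments, but Itgam, Cd68 and Mrc1 had a peak within 1000 bp of the start in all 4, and Adgre1 and Spi1 in none. Of 11 markers of B cells, T cells, neutrophils, fibroblasts and epithelium, none had a promoter peak in any of them. A peak is annotated by the position of its centre, so the promoter-TSS class misses broad peaks whose centre lies inside the gene. Counts of lost peaks are therefore also given for any peak within 1000 bp of the start.

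The score of a peak of RNAPII, PU.1, p300, p65 or an HDAC is a p- or q-value of the peak caller on a −log10 scale, which grows with enrichment and with sequencing depth, so a difference in score is not a difference in amount of the same size. The depth of the samples is unknown, and the number of peaks stands in for it. The RNAPII-pS5 level of the 137 members chose them and is given as a description. Over the 4 samples, the mean score of a member ranged from 11.4 to 200.2, with a median of 55.95 (quartiles 39.4 and 75.02), compared with 44.9 (23.9 and 71.4) for the other 5606 genes. The median over members was 65.48 and 47.7 in the ctrl samples and 57.79 and 54.9 in the IL-4 samples. The 548 peaks had a median width of 794 bp (210 to 1915 bp) and a median distance of −52.5 bp from the start, and 60.6% of their centres lay within 100 bp of it.

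The highest level was that of Zfp963, with scores of 208.0 and 179.24 in ctrl and 212.36 and 202.82 after IL-4. Zfp619 had 230.31 and 180.43 in ctrl and 196.13 and 192.78 after IL-4. Zfp866, a neighbour of Zfp963 in the cluster on chromosome 8, had 207.2 and 159.44, then 195.42 and 166.16. Their ranges overlapped, so the order of these genes is not resolved by the samples. Zfp809, which is known to silence retroviral sequences through Trim28, had 227.89 and 151.7 in ctrl and 172.08 and 169.11 after IL-4. Zfp397 had 187.65, 135.84, 173.26 and 160.52 in the same order.

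The lowest levels belonged to Zfp319 (15.44, 12.11, 7.8 and 11.46), Zfp300 (13.05, 14.75, 14.04 and 8.34), Zfp516 (22.86, 14.22, 12.49 and 6.54), Zfp580 (10.45, 10.28, 10.34 and 30.83) and Zfp444 (21.86, 10.54, 18.82 and 16.88). Zfp516 is known for its part in brown fat, where it activates Ucp1. The lowest single scores inside the rule were 6.54 (Zfp516), 7.8 (Zfp319) and 8.34 (Zfp300). Genes outside the rule were not the weak ones alone. Zfp87 had 107.02, 85.09 and 105.77 and no promoter-TSS peak in the second IL-4 sample, Zfp511 had no such peak in the first ctrl sample and 77.4, 100.19 and 68.46 in the others, and Zfp207, whose product binds Bub3 at kinetochores, had 95.98, 71.91 and 78.48 and none in the second IL-4 sample. The rule asks for a promoter-TSS peak, a class set by the position of the peak's centre. Why these genes lacked such a peak in a sample was not tested.

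With each sample centred on its median over genes shared by all samples, the difference between IL-4 and ctrl in log2 score ranged from −1.01 (Zfp516) to 1.15 (Zfp512) with a median of −0.03. In 20 members (14.6%) both IL-4 samples lay above both ctrl samples, and in 39 (28.5%) both lay below, compared with 19.8% and 21.4% of all 5743 genes of the rule. These counts come from the scores that chose the genes and are a description. Zfp512 had promoter-TSS scores of 22.6 and 18.27 in ctrl and 89.3 and 22.98 after IL-4, while its highest peak within 1000 bp scored 95.47, 70.02, 89.3 and 46.42. The highest peak was thus the promoter-TSS peak in the first IL-4 sample and another peak in the other 3 samples.

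The other antibodies of the 1 hr experiment were not used by the rule. Elongating polymerase and H3K27Ac were found at more of the members' promoters than at those of the other genes, and HDAC1 at fewer. A promoter-TSS peak in all 4 samples was present for RNAPII-pS2 in 30.7% of members and 25.2% of other genes, for H3K27Ac in 64.96% and 54.6%, for PU.1 in 20.4% and 19.8%, for p300 in 43.1% and 49.8%, for HDAC1 in 17.5% and 28.8%, for HDAC2 in 5.84% and 8.33%, and for HDAC3 in 1.46% and 2.997%. With a peak in at least 1 sample, the shares were 66.4% and 53.6% for RNAPII-pS2, 82.5% and 70.1% for H3K27Ac, 46.0% and 46.7% for PU.1, 90.5% and 89.6% for p300, 78.1% and 75.1% for HDAC1, 46.7% and 52.4% for HDAC2, and 10.2% and 15.0% for HDAC3. The order of members and other genes for p300 and HDAC1 therefore depended on how many samples had to carry the peak. The p300 share was decided by 1 library: the first p300 ctrl sample listed 44787 peaks where the others listed 66710 to 69360, and without it 70.1% of members and 70.8% of other genes had p300 in every sample. Without the second HDAC1 IL-4 sample, the HDAC1 shares were 26.3% and 34.4%. No test was made of these shares, since genes of a cluster share their origin and the samples differ in depth.

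**Figure D1:**
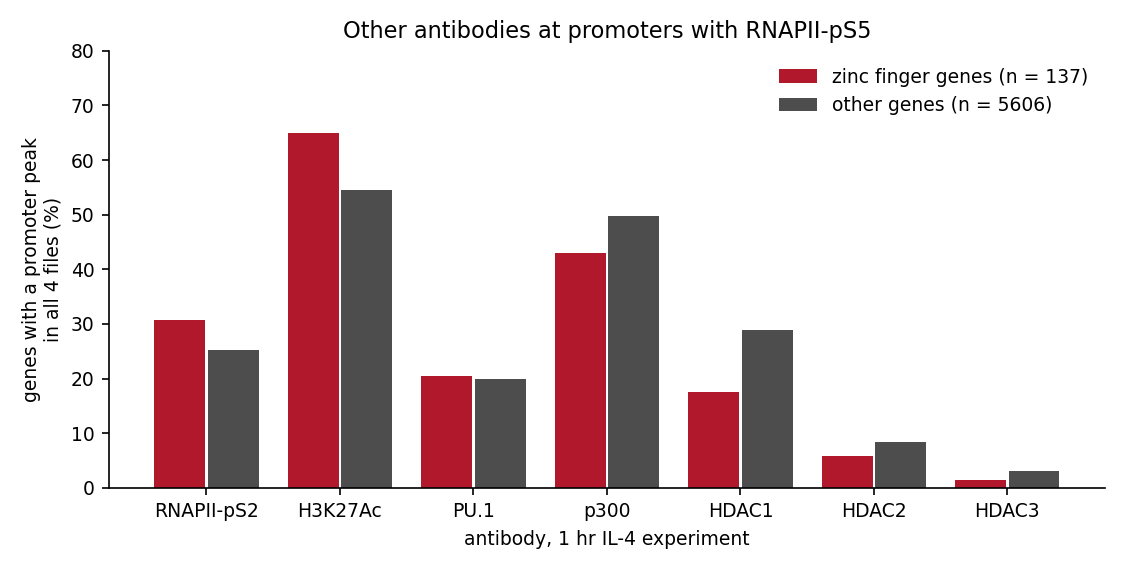
Percentage of the 137 zinc finger genes and of the 5606 other genes of the rule with a promoter-TSS peak in every sample of an antibody. With all samples required, H3K27Ac is the most frequent mark of the members (64.96%) and HDAC3 the rarest (1.46%). Without the first p300 ctrl sample, which had a short list, p300 stands at 70.1% of the members.

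PU.1, p300 and HDAC3 met at few of these promoters. Zfp541, a testis factor of meiosis, and Zfp69 were the 2 members with HDAC3 in all 4 samples. Zfp541 had HDAC3 scores of 22.37 and 21.64 in ctrl and 14.23 and 13.81 after IL-4, PU.1 scores of 39.11, 62.24, 61.96 and 76.43, and p300 scores of 69.76, 166.35, 154.45 and 135.22. HDAC1 (10.96, 8.16, 6.84 and 7.98) and HDAC2 (8.94, 6.36, 16.98 and 9.88) were also listed there in every sample. Its RNAPII-pS5 scores were among the lower ones of the set, at 26.96, 17.34, 12.21 and 12.86. Zfp69 had HDAC3 scores of 15.67, 11.58, 16.72 and 14.46, PU.1 scores of 81.15, 31.18, 82.27 and 61.91, and p300 scores of 12.3, 46.65, 44.61 and 57.62. The labels give the HDAC3 antibody the catalogue number of the H3K27Ac antibody, while the study's list of reagents gives it a number of its own. The highest mean PU.1 scores among the 28 members with PU.1 in every sample were those of Zfp69 (64.13), Zfp541 (59.94), Zfp821 (39.65), Zfp809 (37.31) and Zfp84 (27.95). For p300 they were Zfp541 (131.44), Zfp655 (76.09), Zfp821 (68.09), Zfp326 (59.62), whose product belongs to a complex that couples elongation to splicing, and Zfp943 (47.29).

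The exposure to IL-4 for 1 hr was tested with limma on log2 scores, over every gene that had peaks in 2 or more samples, and a gene was called at a Benjamini-Hochberg adjusted p of at most 0.05. For H3K27Ac, measured as normalized tags per region, 102 of the 137 members were tested, of which 1 was called higher and 6 lower. Of all 4954 genes tested, 5.53% were called higher and 7.47% lower, and among the 3672 other genes of the rule 182 were higher and 254 lower. The members' median log2 change was −0.04, as it was for the other genes (−0.04). This is 0.98% and 5.88% of the members tested, less than among all genes in both directions, a difference that was not tested. Counts fell to 3, 2, 3 and 3 members without the first or second ctrl or the first or second IL-4 sample.

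The H3K27Ac calls were of different kinds. At Zfp821, H3K27Ac was 241.3 and 232.1 in ctrl and 172.2 and 160.4 after IL-4, so that the groups did not overlap (log2 change of −0.58, SE 0.05, adjusted p = 0.0218 with limma). At Zfp541, the values were 306.7 and 317.1 in ctrl and 211.9 and 224.3 after IL-4 (−0.59, SE 0.06, adjusted p = 0.0269 with limma). PU.1 and p300 were high at these promoters, but Zfp69, with the highest mean PU.1 score, had H3K27Ac of 188.2 and 186.2 in ctrl and 191.7 and 217.0 after IL-4. Zfp367, named after its values were seen as the remaining call, had 230.8 and 217.8 in ctrl and 162.9 and 169.1 after IL-4 (−0.51, SE 0.05, adjusted p = 0.0257 with limma). No PU.1 peak was listed within 1000 bp of the start of Zfp367 in any sample. The other 4 calls came from genes with a promoter-TSS region in ctrl alone or after IL-4 alone. Whether a region was lost or was assigned elsewhere was not tested. Zfp41 had a promoter-TSS region only after IL-4 (30.8 and 31.6) and Zfp169 only in ctrl (23.6 and 26.6), but Zfp41 had regions of 35.9 and 30.3 within 1000 bp in ctrl and Zfp169 of 28.8 and 25.3 after IL-4. Zfp667 (163.6 and 153.1 in ctrl) and Zfp27 (139.4 and 121.2 in ctrl) had no promoter-TSS region after IL-4, while the nearest region lay 2279 and 2274 bp from the lost one of Zfp667, with values of 144.4 and 149.3, and 2024 and 2071 bp from that of Zfp27, with values of 130.8 and 132.3.

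For the other antibodies of the 1 hr experiment, no gene in the whole table was called by limma (0% of genes in each). HDAC1 was tested in 81 members, of which 11 had an unadjusted p under 0.05, all of them lower after IL-4, among 561 of all 5091 genes. For HDAC2 it was 4 of 36 members and 260 of 2791 genes, for HDAC3 1 of 5 and 115 of 766, for PU.1 3 of 48 and 342 of 3473, for p300 3 of 114 and 736 of 7661, and for RNAPII-pS2 12 of 111 and 1282 of 8687. The 11 members for HDAC1 had no promoter-TSS peak in either IL-4 sample, and the HDAC1 lists held 30511 and 26836 peaks in ctrl and 23270 and 22340 after IL-4. Within 1000 bp, HDAC1 was listed after IL-4 in both samples at Zfp213 and Zfp426 and in 1 at Zfp3, Zfp397 and Zfp932. At Zfp143, Zfp319, Zfp595, Zfp667, Zfp784 and Zfp946 it was listed in neither. Among members with a peak in all 4 samples, HDAC1 differed most upward at Zfp27 (6.84 and 3.03 in ctrl, 6.97 and 5.0 after IL-4) and most downward at Zfp672 (7.07 and 13.39, then 6.01 and 2.51). The groups overlapped at Zfp27. At Zfp672 the printed scores did not overlap, but the centred values did. HDAC1 at Zfp526 was 8.43 and 3.49 in ctrl and 6.43 and 5.27 after IL-4, and at Zfp277 5.19 and 12.38, then 4.04 and 3.71.

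PU.1 was 7.77 and 3.43 in ctrl and 14.38 and 13.76 after IL-4 at Zfp930, and 7.39 and 6.11, then 12.86 and 15.34, at Zfp444. It was 30.7 and 19.47, then 18.64 and 9.12, at Zfp512, and 21.88 and 10.22, then 10.08 and 7.45, at Zfp54. The differences had log2 values of 1.16, 0.78, −1.19 and −1.07 with SE of 0.50, 0.49, 0.56 and 0.50 and did not pass the threshold (adjusted p of 0.603, 0.822, 0.679 and 0.677 with limma). For p300, the widest were Zfp933 (6.2 and 22.98 in ctrl, 46.48 and 39.41 after IL-4) and Zfp809 (2.99 and 40.7, then 45.03 and 44.07), where the low value belonged to the ctrl sample with the short list. On the lower side p300 was 7.29 and 25.36, then 13.67 and 15.45, at Zfp219, and 11.4 and 32.76, then 27.16 and 20.29, at Zfp384. These 2 differences are negative (log2 −0.77 and −0.59) only after centring and are 0.10 and 0.28 without it. At Zfp821, HDAC2 was 13.71 and 13.14 in ctrl and 9.49 and 6.77 after IL-4 (log2 −0.86, SE 0.69, adjusted p = 0.901 with limma), in the gene at which H3K27Ac was called lower. HDAC2 at Zfp541 was 8.94 and 6.36 in ctrl and 16.98 and 9.88 after IL-4, at Zfp558 5.87 and 3.61, then 13.7 and 4.14, and at Zfp943 7.11 and 5.49, then 7.39 and 3.85.

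The 4 RNAPII-pS2 lists of this experiment name their peaks after the opposite treatment. The labels were kept, and the signs of these differences are not read as effects of IL-4. By the labels, Zfp182 had summed RNAPII-pS2 scores of 8.96 and 2.93 in ctrl and 14.92 and 13.31 after IL-4, Zfp326 had 4.85 and 6.25, then 11.44 and 12.37, Zfp39 had 12.68 and 15.3, then 2.98 and 6.74, and Zfp35 had 17.94 and 10.99, then 12.36 and 2.98. The groups overlapped at Zfp35 and not at the other three. Where the polymerase lay differed between the members and the other genes. Of the members' RNAPII-pS2 peaks in the 1 hr experiment, 47.6% were promoter-TSS peaks, 21.9% intronic and 6.31% exonic, compared with 40.7%, 33.3% and 3.33% for the other genes. In the pretreatment experiment 53.4% were promoter-TSS peaks and 35.0% intronic, compared with 35.5% and 54.0%.

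Exposure to LPS for 1 hr was followed by the disappearance of RNAPII-pS5 peaks at many of these promoters. In ctrl/ctrl, 90 and 80 of the 137 members had a promoter-TSS peak, in IL-4 PT/ctrl 83 and 79, in ctrl/LPS 32 and 36, and in IL-4 PT/LPS 63 and 60. The peak lists as a whole moved the same way, with 20803 and 19279 RNAPII-pS5 peaks in ctrl/ctrl, 21365 and 22149 in IL-4 PT/ctrl, 14476 and 15349 in ctrl/LPS, and 17826 and 18207 in IL-4 PT/LPS, and the part of depth in the members' counts was not tested. Among the other genes, 3115 and 2891 of 5606 had the peak in ctrl/ctrl and 1500 and 1551 in ctrl/LPS. Of 70 members with a peak in both ctrl/ctrl samples, 40 (57.1%) had none in both ctrl/LPS samples, compared with 43.2% of the other genes. For peaks within 1000 bp of the start it was 47 of 93 members (50.5%) and 35.7% of the other genes. For 37 of the 40 genes, no RNAPII-pS5 peak of any gene lay within 1000 bp of the lost peak in either ctrl/LPS sample. In turn, 3 genes (Zfp260, Zfp367 and Zfp959) had a promoter-TSS peak in both ctrl/LPS samples and in neither ctrl/ctrl sample.

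In the fit of RNAPII-pS5, missing scores were set to the lowest score of the antibody's lists, and 104 of the 137 members had a promoter-TSS peak in at least 2 of the 8 samples. Between ctrl/LPS and ctrl/ctrl, 30 were called lower and 2 higher. Of all 5196 genes tested, 15.1% were called lower and 4.23% higher, and of the 3715 other genes of the rule 639 were lower and 127 higher. The median log2 change was −1.05 for the members, −0.59 for the other genes and −0.46 for all genes. Without centring it was −1.57 for the members and −0.99 for all genes, a common shift that the counts of peaks share. In the 14 members with a peak in all 8 samples, where no score was missing, 11 were lower, and the median was −0.44, compared with 0.03 in 735 other genes. The number of members called fell to 17 without either ctrl/ctrl sample, to 13 without the first and to 9 without the second ctrl/LPS sample. With the floor for missing scores 4 times as high, the count turned to 13 lower and 20 higher and the median to 0.15. That floor (5.76) lies above 23.3% of the members' listed scores, so a lost peak then counts as more than a weak one.

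Zfp59 had RNAPII-pS5 scores of 15.96 and 18.03 in ctrl/ctrl, 13.06 and 18.41 in IL-4 PT/ctrl, no peak in ctrl/LPS, and 14.94 and 11.78 in IL-4 PT/LPS. Its log2 change with LPS was −3.03 (SE 0.31, adjusted p = 0.00478 with limma). Zfp825 had 24.78 and 19.12, then 18.89 and 19.42, no peak in ctrl/LPS, and 11.85 and 13.28 in IL-4 PT/LPS (LPS change of −3.39, SE 0.29, adjusted p = 0.00379 with limma). Zfp655, a promoter with p300 in every sample, had 29.95 and 12.87, then 16.61 and 20.07, no peak, and 12.38 and 14.86 (−3.24, SE 0.45, adjusted p = 0.00777 with limma). At these 3 genes the ctrl/LPS samples alone lacked the peak, so the spread within ctrl/LPS was not measured. The calls at Zfp59 and Zfp825 held in all 15 alternative fits, and that at Zfp655 was lost in 2.

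Zfp672 kept a weak peak under LPS, with 35.68 and 29.54 in ctrl/ctrl, 24.91 and 27.01 in IL-4 PT/ctrl, 3.74 and 2.41 in ctrl/LPS, and 8.2 and 4.56 in IL-4 PT/LPS (LPS change of −2.91, SE 0.42, adjusted p = 0.00867 with limma). All 4 samples with LPS lay below all 4 without it. Zfp94 had 17.31 and 13.8, then 12.08 and 18.15, no peak, and 13.68 and 4.53 (−2.90, SE 0.56, adjusted p = 0.0194 with limma). Zfp809, the retroviral silencer, had a promoter-TSS peak in only 3 of the 8 samples, but its peaks within 1000 bp scored 35.75 and 28.81 in ctrl/ctrl, 37.22 and 27.71 in IL-4 PT/ctrl, 4.56 and 6.12 in ctrl/LPS, and 25.17 and 22.31 in IL-4 PT/LPS. The ctrl/LPS samples were again the lowest.

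The 2 members called higher with LPS had little RNAPII-pS5 before it in this experiment. Zfp367 had no peak in ctrl/ctrl, 7.2 and 14.77 in IL-4 PT/ctrl, 5.39 and 14.22 in ctrl/LPS, and 14.99 and 19.27 in IL-4 PT/LPS (LPS change of 3.13, SE 0.56, adjusted p = 0.0151 with limma). In this experiment, all 3 treated groups thus had the peak that ctrl/ctrl lacked. The ctrl samples of the 1 hr experiment had scores of 55.03 and 33.64 at Zfp367 and 66.77 and 52.67 at Zfp260. Zfp260 had no promoter-TSS peak in ctrl/ctrl and 4.22 and 7.36 in ctrl/LPS (2.48, SE 0.58, adjusted p = 0.0353 with limma).

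RNAPII-pS2, summed over all peaks of a gene, moved in the same direction for most members. It was tested in 120 members, of which 29 were called lower and 4 higher with LPS. Of all 11640 genes tested, 12.8% were lower and 9.36% higher, and of 5029 other genes 708 were lower and 320 higher. The median log2 change was −0.92 for the members, −0.39 for the other genes and −0.21 for all. In the 56 members with RNAPII-pS2 in all 8 samples, 41 were lower, with a median of −0.49 compared with −0.14 in 2468 other genes. The number of calls was 15 and 19 without the first or second ctrl/ctrl sample, and 18 without the first ctrl/LPS sample. Of the 30 members called lower for RNAPII-pS5, 16 (53.3%) were also called lower for RNAPII-pS2, which is 64.0% of the 25 called lower for RNAPII-pS2 among the 101 tested for both. These were Zfp3, Zfp54, Zfp59, Zfp219, Zfp229, Zfp316, Zfp329, Zfp384, Zfp395, Zfp397, Zfp467, Zfp655, Zfp672, Zfp708, Zfp758 and Zfp964, listed whole and therefore not chosen by size.

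Zfp708 had RNAPII-pS2 sums of 11.29 and 15.93 in ctrl/ctrl, 11.12 and 15.54 in IL-4 PT/ctrl, and no peak in any sample with LPS (LPS change of −3.36, SE 0.31, adjusted p = 0.00176 with limma). Zfp329 had 9.48 and 18.91, then 18.44 and 19.96, and likewise none with LPS (−3.36, SE 0.39, adjusted p = 0.00309 with limma). In both genes, IL-4 PT left RNAPII-pS2 undetected under LPS. Zfp59 had 12.86 and 9.33, then 8.48 and 11.04, none in ctrl/LPS, and 13.29 and 9.26 in IL-4 PT/LPS (−3.07, SE 0.30, adjusted p = 0.00199 with limma). Zfp219, a partner of Sox9 in cartilage, had 15.46 and 5.94, then 4.77 and 8.59, none in ctrl/LPS, and 5.79 and 8.77 in IL-4 PT/LPS (−2.88, SE 0.52, adjusted p = 0.0127 with limma). Zfp958 had 13.31 and 8.79 in ctrl/ctrl, 3.21 in 1 IL-4 PT/ctrl sample, and no peak elsewhere (−3.05, SE 0.49, adjusted p = 0.00838 with limma).

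The 4 members called higher for RNAPII-pS2 with LPS owed this to peaks away from the promoter. Zfp281, a regulator known from embryonic stem cells, had no peak in ctrl/ctrl and 8.41 and 10.29 in ctrl/LPS, none of it at the promoter (2.65, SE 0.62, adjusted p = 0.0292 with limma). Zfp558 rose from 17.85 and 23.41 to 58.1 and 61.38 (1.46, SE 0.28, adjusted p = 0.0165 with limma), while its promoter peak was 9.89 and 11.14 in ctrl/ctrl and 6.23 and 7.52 in ctrl/LPS. Zfp560 rose from 7.0 and 12.13 to 27.12 and 24.13 (1.38, SE 0.35, adjusted p = 0.0379 with limma), with its promoter peak (7.0 and 12.13) lost and intronic peaks gained. Zfp326 rose from 7.27 and 7.05 to 32.0 and 36.65 (2.17, SE 0.25, adjusted p = 0.00319 with limma), through an intronic peak annotated to it that lies at −78019 and −78070 bp from its start and so outside the gene. With the promoter peak alone, Zfp326, Zfp558 and Zfp560 changed sign (−0.89, −0.27 and −2.38).

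In the cluster on chromosome 8, some neighbours were called and others were not, and differences between neighbours were not tested. Zfp869 shares its promoter with another gene, and at Zfp964 a peak within 1000 bp was still listed in ctrl/LPS. RNAPII-pS5 with LPS changed by −2.19 at Zfp964 (adjusted p = 0.0130 with limma) and by −0.06 at Zfp869, while the values at Zfp868 (−1.10, adjusted p = 0.0548 with limma) and Zfp963 (−2.73, adjusted p = 0.291 with limma) did not pass. Zfp866 had too few promoter-TSS peaks for the fit, and its peaks within 1000 bp scored 41.81 and 38.24 in ctrl/ctrl, 39.14 and 38.37 in IL-4 PT/ctrl, 18.8 and 12.44 in ctrl/LPS, and 33.64 and 42.88 in IL-4 PT/LPS. For RNAPII-pS2, Zfp964 (−2.64, adjusted p = 0.00784), Zfp963 (−1.88, adjusted p = 0.0203) and Zfp866 (−1.24, adjusted p = 0.0410) were called lower by limma, and Zfp868 (−0.40) and Zfp869 (−0.70) were not. The 5 genes were named for their position.

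Exposure to IL-4 for 24 hr without LPS moved few members, in both directions. For RNAPII-pS5, 4 were called higher and 7 lower (3.81% and 3.96% of all genes). The called genes fell to 2 and 0 without the first or second ctrl/ctrl sample, to 5 and 4 without an IL-4 PT/ctrl sample, and to 5 with any peak within 1000 bp. Zfp467, known to steer the choice between fat and bone cells, had 7.58 and 6.83 in ctrl/ctrl and no peak within 1000 bp in any other sample (log2 change of −2.34, SE 0.26, adjusted p = 0.00957 with limma). Zfp51, Zfp143, Zfp329 and Zfp708 lost the promoter-TSS peak in both IL-4 PT/ctrl samples but kept peaks within 1000 bp there, of 7.06 and 8.52, 9.04 and 10.87, 10.34 and 3.74, and 8.32 and 9.56. Zfp143, an activator of small nuclear RNA genes, had scores of 8.16 to 13.87 within 1000 bp in all 8 samples. On the higher side, Zfp367 is given above (2.82, SE 0.56, adjusted p = 0.0372 with limma). Zfp738 (5.56 and 11.1), Zfp512 (5.69 and 7.21) and Zfp939 (3.99 and 4.57) had a promoter-TSS peak in IL-4 PT/ctrl and none in ctrl/ctrl. Peaks within 1000 bp were listed in both ctrl/ctrl samples for Zfp738 (5.35 and 4.0) and Zfp512 (10.27 and 10.3), and in 1 for Zfp939 (3.81).

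For RNAPII-pS2, 5 members were called higher and 6 lower (5.87% and 5.40% of all genes), and leaving out a sample of either group left 3 to 6. Zfp27 had 2.64 and no peak in ctrl/ctrl and 7.36 and 9.86 after IL-4 (log2 change of 2.31, SE 0.45, adjusted p = 0.0257 with limma). Zfp276 rose from 7.43 and 4.18 to 28.01 and 18.73 (2.20, SE 0.47, adjusted p = 0.0354 with limma), and Zfp558 from 17.85 and 23.41 to 52.9 and 60.14 (1.62, SE 0.28, adjusted p = 0.0188 with limma). Zfp251 (4.64 and 4.14) and Zfp946 (3.24 and 3.46) had RNAPII-pS2 in the IL-4 PT/ctrl samples and in no other group. Zfp260 (8.53 and 5.38), Zfp951 (7.17 and 6.25), Zfp934 (5.44 and 4.6) and Zfp229 (6.06 and 4.1) had it in ctrl/ctrl and in neither IL-4 PT/ctrl sample. Zfp958 was also called lower (−2.20, SE 0.49, adjusted p = 0.0388 with limma).

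When IL-4 preceded LPS, RNAPII-pS5 was present at promoters that lacked it with LPS alone. From ctrl/LPS to IL-4 PT/LPS, 22 members (16.1% of 137) gained a promoter-TSS peak in both samples and 2, Zfp131 and Zfp260, lost it, compared with 494 (8.81%) and 53 (0.945%) of the 5606 other genes. For 19 of the 22, no peak of any gene lay within 1000 bp of the gained peak in either ctrl/LPS sample. In the fit, 6 members were called higher and 2 lower (3.25% and 1.54% of all genes), compared with 119 and 38 of the 3715 other genes. The calls rest on every one of the 4 samples: without the first or second ctrl/LPS sample 0 were left, and without the first or second IL-4 PT/LPS sample 0 and 1. The median change of the members was 0.08 with centring and 0.76 without it, against −0.18 and 0.50 for all genes, and without centring 12 were higher and 2 lower. With the raised floor, 1 was higher and 36 were lower. This comparison shares the ctrl/LPS samples with that of LPS alone, so the values are set side by side and not correlated.

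The called genes were Zfp655 (log2 change of 2.56, SE 0.45, adjusted p = 0.0379), Zfp59 (2.52, SE 0.31, adjusted p = 0.0140), Zfp825 (2.44, SE 0.29, adjusted p = 0.0134), Zfp709 (2.34, SE 0.28, adjusted p = 0.0138) and Zfp219 (2.05, SE 0.28, adjusted p = 0.0188), all with limma. The scores of the first 3 are given above. Zfp709 had 11.63 and 9.37 in ctrl/ctrl, 8.56 and 10.38 in IL-4 PT/ctrl, none in ctrl/LPS (5.33 within 1000 bp in 1 sample), and 12.08 and 11.3 in IL-4 PT/LPS. Zfp219 had 7.19 and 8.29, then 8.39 and 9.61, none, and 9.01 and 10.11. At Zfp709 and Zfp219 the scores of IL-4 PT/LPS reached those of the groups without LPS. Zfp457, the sixth call and so outside the rule for named genes, had 12.53 and 12.8, then 14.64 and 14.49, none, and 9.57 and 7.72.

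Zfp821 and Zfp131 went the other way. Zfp821 had RNAPII-pS5 scores of 22.01 and 17.44 in ctrl/ctrl, 11.48 and 15.39 in IL-4 PT/ctrl, 17.36 and 20.89 in ctrl/LPS, and 4.58 and 3.2 in IL-4 PT/LPS (log2 change of −2.99 under LPS, SE 0.33, adjusted p = 0.0120 with limma). Its RNAPII-pS2 sums were 23.72 and 21.39, then 7.97 and 7.7, 19.5 and 18.32, and 3.76 and none (−3.09, SE 0.47, adjusted p = 0.0160 with limma). For both forms of the polymerase, Zfp821 had its lowest values where IL-4 preceded LPS, and the groups with IL-4 lay below those without it. Zfp131 had RNAPII-pS5 scores of 11.04 and 12.95, then 13.52 and 16.77, 6.45 and 8.75, and no peak in IL-4 PT/LPS (−3.06, SE 0.30, adjusted p = 0.00956 with limma). Its start lies within 1000 bp of another gene's.

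For RNAPII-pS2, 3 members were called higher and 2 lower when IL-4 preceded LPS (4.20% and 2.53% of all genes), and 1 to 3 calls were left without a sample of any group. Zfp59 was called for this form as well (2.96, SE 0.30, adjusted p = 0.00544 with limma). Zfp260 had no peak and 3.53 in ctrl/LPS and 14.98 and 13.48 in IL-4 PT/LPS (2.64, SE 0.51, adjusted p = 0.0349 with limma), and Zfp27 had none in ctrl/LPS and 8.91 and 4.38 in IL-4 PT/LPS (2.13, SE 0.45, adjusted p = 0.0460 with limma). Zfp326 was called lower (−1.27, SE 0.25, adjusted p = 0.0406 with limma), again through the distant intronic peak. At Zfp672, where RNAPII-pS2 was 27.95 and 35.29 in ctrl/ctrl, 43.75 and 33.03 in IL-4 PT/ctrl and 6.52 and 9.87 in ctrl/LPS, it was 24.69 and 15.22 in IL-4 PT/LPS. Zfp825 (9.02 and 5.0, then 8.25 and 12.14) and Zfp655 (9.24 and 10.46, then 13.34 and 11.31) differed little in RNAPII-pS2 between the 2 groups with LPS.

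Whether the LPS change itself differed with IL-4 PT was tested as an interaction. For RNAPII-pS5, 5 members were called higher and 4 lower (2.00% and 3.44% of all genes), and for RNAPII-pS2 3 and 2 (2.81% and 2.34%). Leaving out 1 sample left 0 to 5 calls for RNAPII-pS5 and 0 in every case for RNAPII-pS2. The median interaction for RNAPII-pS2 was 0.64 in the members, 0.26 in the other genes and 0.12 in all genes.

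p65 was found at 10.9% to 32.1% of these promoters in a single sample. A promoter-TSS peak in at least 1 of the 8 samples was present for 58.4% of members and 56.7% of other genes. A peak in all 8 samples was present for 2.19% of members and 4.48% of other genes, and in both ctrl/LPS samples for 19 members (13.9%) and 19.6% of other genes. The highest mean scores in ctrl/LPS were those of Zfp84 (29.58), Zfp263 (23.03), Zfp821 (18.33), Zfp933 (9.7) and Zfp58 (7.21). With LPS, 4 of 59 members tested were called higher and 1 lower (12.6% and 2.24% of all 3926 genes). Leaving out a sample left 1 to 5, and without centring 8 were higher and 1 lower, where the median of all genes was 0.84 in place of 0.12. With the raised floor, 2 were higher and 45 lower.

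Zfp263 had no peak and 3.62 of p65 in ctrl/ctrl, none in IL-4 PT/ctrl, 21.45 and 24.61 in ctrl/LPS, and 9.16 and 15.44 in IL-4 PT/LPS (LPS change of 2.68, SE 0.54, adjusted p = 0.0258 with limma). It was among the 40 genes that lost RNAPII-pS5 with LPS. Zfp94 had a promoter-TSS peak of p65 in ctrl/LPS alone (6.34 and 7.46, with 2.47 within 1000 bp in 1 IL-4 PT/LPS sample; LPS change of 1.67, SE 0.27, adjusted p = 0.0129 with limma), and it too lacked RNAPII-pS5 there. Zfp58 had 6.21 and 8.22 in ctrl/LPS and 2.47 in 1 IL-4 PT/LPS sample (1.73, SE 0.38, adjusted p = 0.0340 with limma). Zfp558 had no p65 in ctrl/ctrl and promoter-TSS scores of 4.44 to 5.89 in the 6 samples of the other groups (1.25, SE 0.29, adjusted p = 0.0394 with limma). Over all its peaks, Zfp558 had p65 of 5.89 and 15.39 in IL-4 PT/ctrl, 58.77 and 77.25 in ctrl/LPS, and 110.92 and 113.92 in IL-4 PT/LPS. Zfp62 was the 1 member called lower, with 11.49 and 13.82 in ctrl/ctrl, 10.46 and 10.37 in IL-4 PT/ctrl, 3.44 and 4.62 in ctrl/LPS, and 15.82 and 16.7 in IL-4 PT/LPS (−2.38, SE 0.28, adjusted p = 0.00570 with limma). The ctrl/LPS samples of Zfp62 were the only low ones.

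Between IL-4 PT/LPS and ctrl/LPS, p65 was called higher at 8 members and lower at 4 (9.12% and 2.83% of all genes), with 5 calls left without the second ctrl/LPS sample and 0 without either IL-4 PT/LPS sample. Zfp821 had p65 scores of 6.54 and 5.22 in ctrl/ctrl, none in IL-4 PT/ctrl, 18.13 and 18.53 in ctrl/LPS, and 3.49 and none in IL-4 PT/LPS (−3.29, SE 0.51, adjusted p = 0.0126 with limma). At Zfp821, the promoter-TSS peak of p65, RNAPII-pS5 and RNAPII-pS2 were thus all lower when IL-4 preceded LPS. This promoter had PU.1 scores of 40.46, 22.9, 45.97 and 49.27 in the 1 hr experiment. Over all peaks of Zfp821, p65 differed less, with 44.64 and 38.06 in ctrl/ctrl, 31.57 and 33.18 in IL-4 PT/ctrl, 45.85 and 45.15 in ctrl/LPS, and 36.28 and 36.02 in IL-4 PT/LPS. Zfp94, Zfp58 and Zfp959 were the other calls on the lower side. At Zfp959 the promoter-TSS peak was listed in ctrl/LPS alone (3.72 and 3.63), but peaks within 1000 bp scored 4.54 and 3.84 in IL-4 PT/LPS and 4.65 in 1 IL-4 PT/ctrl sample. On the higher side, Zfp62 rose (1.84, SE 0.28, adjusted p = 0.0128 with limma), and Zfp865 (15.11 and 6.87), Zfp426 (8.33 and 6.54), Zfp771 (5.71 and 7.7) and Zfp607 (5.04 and 5.22) had a promoter-TSS peak in IL-4 PT/LPS and in no other group. Within 1000 bp, this held for Zfp771, while in ctrl/LPS Zfp607 had 26.58 and 18.89 (46.91 and 39.04 in IL-4 PT/LPS), Zfp426 had 4.27 and 6.87, and Zfp865 had 6.03 in 1 sample. Zfp607 also had 6.78 in 1 IL-4 PT/ctrl sample and Zfp865 6.68 in 1 ctrl/ctrl sample. The remaining calls, Zfp318, Zfp281 and Zfp367, had promoter-TSS scores of 3.77 to 4.97 in IL-4 PT/LPS and none in the other groups. Over all its peaks, Zfp318 had p65 of 11.83 and 7.76 in ctrl/LPS and 36.79 and 43.77 in IL-4 PT/LPS.

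The corepressors with which KRAB zinc finger proteins work were described from a list of 17 genes. Of these, 11 met the rule for RNAPII-pS5 (Trim28, Setdb1, Cbx1, Chd4, Hdac1, Daxx, Dnmt1, Uhrf1, Morc3, Smarcad1 and Sumo2). Trim28, the scaffold that KRAB domains bind, had 60.19 and 26.36 in ctrl and 75.39 and 72.13 after IL-4 for 1 hr. With LPS, none of 5 tested was called for RNAPII-pS5 (median of −0.88), and 1 of 14, the maintenance DNA methyltransferase Dnmt1, was called higher for RNAPII-pS2 (2.42, SE 0.40, adjusted p = 0.00963 with limma; median of −0.34). Of all genes tested for RNAPII-pS2, 9.36% were called higher with LPS. Hdac1 was called lower for RNAPII-pS5 after 24 hr of IL-4 (−2.25, adjusted p = 0.0492 with limma), and its LPS change differed with IL-4 PT (3.75, adjusted p = 0.0392 with limma). Of all genes tested, 3.96% and 2.00% were called in these directions. For p65, the Setdb1 partner Atf7ip and the histone chaperone Daxx were called higher with LPS, and Smarcad1, a chromatin remodeler, and Sumo2, a modifier of proteins, when IL-4 preceded LPS, each out of 8 tested. Of all genes tested for p65, 12.6% were called higher with LPS and 9.12% when IL-4 preceded it. H3K27Ac was called lower at Cbx1, a heterochromatin protein, after 1 hr of IL-4, out of 8 tested (log2 change of −4.22, SE 0.11), compared with 7.47% of all genes. Whether the Cbx1 region was lost or was assigned elsewhere was not tested. No corepressor was called for PU.1 (2 tested), p300 (12), HDAC1 (8) or HDAC2 (4), and none was tested for HDAC3.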

How the data were processed

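Deposited lists of annotated ChIP-seq peaks, 1 per sample, were used for 56 samples and 9 antibodies. Per the submitters' processing notes, the authors used BWA 0.7.10, SAMtools 0.1.19, MACS2 2.0.10 and HOMER 4.2 with mm10. The deposited score of MACS2 peaks is a −log10 p- or q-value, and which of them is not given in the sources used here. For H3K27Ac, the deposited value is a HOMER signal, in normalized tags per region. No input sample was named, and read depth is unknown.

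The members and gene lists were chosen with earlier results of these data known. A gene's value was its highest promoter-TSS score, or for RNAPII-pS2 the sum over its peaks that are not intergenic. A missing peak took the lowest score of the antibody's lists, log2 values were taken, and the median of genes present in all samples of a fit was subtracted from each sample. Every gene that had peaks in 2 or more samples was tested with limma 3.58.1 (R 4.3.3) over the whole table, without a replicate block, with Benjamini-Hochberg adjustment and a threshold of 0.05. Residual spread was shared by the 4 or 8 samples of an antibody and experiment. The fit was tested on simulated data. Scripts used Python 3.11.15, pandas 2.3.3, NumPy 2.4.6, SciPy 1.17.1 and matplotlib 3.10.9.

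Named genes were, per comparison and direction, up to 5 called members with the largest change or, where none was called, the 2 highest and 2 lowest changes among members with a peak in every sample. The 5 highest and 5 lowest in RNAPII-pS5, up to 5 highest for PU.1, p300, HDAC3 and p65, genes at the edge of the rule and the corepressors were added. Alternatives were no centring, a floor 4 times as high, a peak in every sample, summed scores or the highest promoter peak, the upper 50% of peaks, a replicate block, and leaving out each sample. Promoter sequences came from RefSeq (GRCm38.p6). Members without a matched promoter were Zfp7, Zfp35, Zfp41, Zfp51, Zfp182, Zfp236, Zfp251, Zfp276, Zfp362, Zfp369, Zfp395, Zfp397, Zfp407, Zfp438, Zfp516, Zfp568, Zfp574, Zfp647, Zfp703, Zfp706, Zfp707, Zfp865, Zfp870, Zfp930 and Zfp934. The paper's methods give the LPS dose in another unit than the labels, and the label's unit is printed.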

Additional observations from a re-analysis of the deposited data

Results flagged for a closer look

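The LPS change in polymerase differed between IL-4 PT and control BMDMs at 13 members by the interaction term of limma, and each was marked because the test of that difference passed an adjusted p of 0.05. No call was left for either form with the replicate number as a block, and without 1 sample at a time 0 to 5 were left for RNAPII-pS5 and 0 for RNAPII-pS2. For RNAPII-pS5, the interaction was 4.64 at Zfp51 (adjusted p = 0.0241), 2.68 at Zfp59 (0.0310), 2.65 at Zfp825 (0.0250), 2.51 at Zfp709 (0.0288) and 2.30 at Zfp707 (0.0464) with limma. At these 5 genes the promoter-TSS peak was absent in ctrl/LPS and present in IL-4 PT/LPS. The interaction was −2.23 at Zfp939 (adjusted p = 0.0322), −2.41 at Zfp821 (0.0466), −2.81 at Zfp512 (0.0211) and −3.37 at Zfp131 (0.0177) with limma. Zfp939 and Zfp512 had a promoter-TSS peak in IL-4 PT/ctrl and in no other group of this experiment, so their values come from samples without LPS.

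For RNAPII-pS2, the interaction was 4.77 at Zfp260 (adjusted p = 0.0252), 2.98 at Zfp59 (0.0245), 2.07 at Zfp951 (0.0335), −1.85 at Zfp251 (0.0478) and −3.40 at Zfp276 (0.0460) with limma. Zfp59 was thus the 1 member marked for both forms of the polymerase. The values at Zfp512 and Zfp51 rest in part on peaks whose centre left the promoter-TSS class: with any peak within 1000 bp the interaction was 1.57 at Zfp512 and 3.12 at Zfp51. Zfp951 and Zfp251 had RNAPII-pS2 in ctrl/ctrl or IL-4 PT/ctrl alone and none in either group with LPS, so their values come from the samples without LPS.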

How the results depend on the processing

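The counts of members called rest on missing peaks, on the floor set for them and on single samples. The falls in RNAPII-pS5 and RNAPII-pS2 with LPS kept a negative median in the members under the alternatives run, except for RNAPII-pS5 with a floor 4 times as high. That floor lies above 23.3% of the members' listed RNAPII-pS5 scores and above 54.6% of those of p65, so that a missing peak then outranks weak peaks. For single genes, 525 values kept direction and side of the threshold under another setting, 148 kept only the direction, 3 passed in addition and 33 reversed. Without 1 sample these were 369, 289 and 4 for the first, second and last of these. A group left with 1 sample was assumed to vary like the other groups. Missing scores set after centring and any peak within 1000 bp of the start were chosen after seeing the data. Values without a comparison in brackets are for 1 hr IL-4, and the interaction is the LPS change with IL-4 PT minus that without it. The cause of each difference between settings was not tested.

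Without centring, the members called numbered 14 for RNAPII-pS5 (IL-4 PT under LPS), 18 for RNAPII-pS5 (interaction) and 9 for p65 (LPS). In the same fit, the median log2 change was 0.0321 for H3K27Ac, −0.50 for HDAC1, 0.21 for HDAC3, 0.19 for PU.1, −0.10 for RNAPII-pS2, −1.57 for RNAPII-pS5 (LPS), 0.76 for RNAPII-pS5 (IL-4 PT under LPS), 0.76 for RNAPII-pS5 (interaction), −0.27 for RNAPII-pS2 (24 hr IL-4), 0.84 for RNAPII-pS2 (interaction), 0.95 for p300 and 0.66 for p65 (LPS). There, the change reversed at Zfp69 to 0.21 for HDAC3, Zfp384 to 0.28 for p300 and Zfp219 to 0.096 for p300. With genes that had a peak in every sample, the members called numbered 11 for H3K27Ac, 4 for RNAPII-pS5 (LPS), 0 for RNAPII-pS5 (24 hr IL-4), 1 for RNAPII-pS5 (IL-4 PT under LPS), 1 for RNAPII-pS5 (interaction), 21 for RNAPII-pS2 (LPS), 3 for RNAPII-pS2 (24 hr IL-4), 1 for RNAPII-pS2 (IL-4 PT under LPS), 0 for RNAPII-pS2 (interaction), 1 for p65 (LPS) and 1 for p65 (IL-4 PT under LPS). There, the median log2 change was −0.51 for HDAC3, 0.0408 for PU.1, −0.44 for RNAPII-pS5 (LPS), −0.37 for RNAPII-pS5 (24 hr IL-4), −0.49 for RNAPII-pS2 (LPS), −0.25 for RNAPII-pS2 (24 hr IL-4), 0.22 for RNAPII-pS2 (IL-4 PT under LPS) and −0.15 for p300. With the summed scores of all peaks of a gene, the members called numbered 16 for H3K27Ac, 3 for RNAPII-pS5 (24 hr IL-4), 14 for RNAPII-pS5 (IL-4 PT under LPS) and 14 for p65 (LPS). In that fit, the median log2 change was 0.0253 for H3K27Ac, −0.00794 for PU.1, 0.34 for RNAPII-pS5 (IL-4 PT under LPS), 0.44 for RNAPII-pS5 (interaction) and −0.67 for p65 (LPS). In this setting, the change reversed at Zfp41 to −0.0927 for H3K27Ac, Zfp169 to 0.095 for H3K27Ac, Zfp526 to −0.14 for HDAC1, Zfp558 to −0.10 for HDAC2, Zfp467 to 0.46 for RNAPII-pS5 (24 hr IL-4), Zfp329 to 0.0973 for RNAPII-pS5 (24 hr IL-4), Zfp512 to 1.27 for RNAPII-pS5 (interaction), Zfp809 to −0.0465 for p300 and Zfp219 to 0.11 for p300. With a floor 4 times as high, the members called numbered 1 for RNAPII-pS5 (24 hr IL-4), 37 for RNAPII-pS5 (IL-4 PT under LPS), 27 for RNAPII-pS5 (interaction), 8 for RNAPII-pS2 (IL-4 PT under LPS), 3 for RNAPII-pS2 (interaction), 47 for p65 (LPS) and 6 for p65 (IL-4 PT under LPS). In the same fit, the median log2 change was 0.18 for HDAC1, −0.28 for HDAC3, −0.28 for PU.1, 0.0804 for RNAPII-pS2, 0.15 for RNAPII-pS5 (LPS), −0.56 for RNAPII-pS5 (IL-4 PT under LPS), −0.49 for RNAPII-pS5 (interaction), −0.35 for RNAPII-pS2 (LPS), 0.0837 for RNAPII-pS2 (interaction), −0.24 for p300 and −0.72 for p65 (LPS). There, the change reversed at Zfp41 to −0.0742 for H3K27Ac, Zfp939 to −0.0221 for RNAPII-pS5 (24 hr IL-4), Zfp934 to 0.16 for RNAPII-pS2 (24 hr IL-4), Zfp229 to 0.0954 for RNAPII-pS2 (24 hr IL-4), Zfp58 to −0.27 for p65 (LPS), Zfp94 to −0.33 for p65 (LPS), Zfp558 to −0.69 for p65 (LPS) and Zfp607 to −0.19 for p65 (IL-4 PT under LPS). With any peak within 1000 bp of the start, the members called numbered 5 for RNAPII-pS5 (24 hr IL-4) and 4 for RNAPII-pS5 (interaction). There, the median log2 change was 0.30 for HDAC3, 0.0687 for PU.1, 0.25 for RNAPII-pS5 (IL-4 PT under LPS), 0.37 for RNAPII-pS5 (interaction), −0.78 for RNAPII-pS2 (LPS), −0.20 for RNAPII-pS2 (IL-4 PT under LPS) and 0.26 for RNAPII-pS2 (interaction). In that fit, the change reversed at Zfp41 to −0.16 for H3K27Ac, Zfp169 to 0.0268 for H3K27Ac, Zfp512 to −0.36 for RNAPII-pS5 (24 hr IL-4), Zfp143 to 0.0862 for RNAPII-pS5 (24 hr IL-4), Zfp329 to 0.00295 for RNAPII-pS5 (24 hr IL-4), Zfp512 to 1.57 for RNAPII-pS5 (interaction), Zfp326 to −0.94 for RNAPII-pS2 (LPS), Zfp558 to −0.31 for RNAPII-pS2 (LPS) and Zfp560 to −2.42 for RNAPII-pS2 (LPS). With the upper 50% of the peaks, the members called numbered 3 for HDAC1, 5 for RNAPII-pS2, 17 for RNAPII-pS5 (LPS), 5 for RNAPII-pS5 (24 hr IL-4), 14 for RNAPII-pS5 (interaction), 19 for RNAPII-pS2 (LPS), 13 for RNAPII-pS2 (interaction), 3 for p65 (LPS) and 2 for p65 (IL-4 PT under LPS). In that fit, the median log2 change was −0.0133 for HDAC1, −0.51 for HDAC3, −0.00508 for PU.1, 0.055 for RNAPII-pS2, −1.50 for RNAPII-pS5 (LPS), 0.64 for RNAPII-pS5 (IL-4 PT under LPS), 0.63 for RNAPII-pS5 (interaction), −1.50 for RNAPII-pS2 (LPS), 0.35 for RNAPII-pS2 (IL-4 PT under LPS), 1.09 for RNAPII-pS2 (interaction) and 0.77 for p300. In this setting, the change reversed at Zfp260 to 0.0978 for RNAPII-pS2 (24 hr IL-4). With missing scores set after centring, the members called numbered 9 for p65 (LPS). In this setting, the median log2 change was −0.0174 for PU.1, 0.43 for RNAPII-pS5 (interaction) and 0.59 for p65 (LPS). With the highest promoter-TSS peak for RNAPII-pS2, the members called numbered 18 for RNAPII-pS2 (LPS). In the same fit, the median log2 change was 0.11 for RNAPII-pS2, −0.74 for RNAPII-pS2 (LPS), −0.20 for RNAPII-pS2 (IL-4 PT under LPS) and 0.0858 for RNAPII-pS2 (interaction). There, the change reversed at Zfp326 to −0.89 for RNAPII-pS2 (LPS), Zfp558 to −0.27 for RNAPII-pS2 (LPS) and Zfp560 to −2.38 for RNAPII-pS2 (LPS). With a peak in at least 1 file, the share of members with a promoter peak was 66.4% for RNAPII-pS2, 82.5% for H3K27Ac, 45.98% for PU.1, 90.5% for p300, 78.1% for HDAC1, 46.7% for HDAC2, 10.2% for HDAC3, 86.9% for RNAPII-pS5 and 58.4% for p65. With the upper 50% of peaks, the share of members with a promoter peak was 18.98% for RNAPII-pS2, 50.4% for H3K27Ac, 10.2% for PU.1, 9.49% for p300, 2.92% for HDAC1, 1.46% for HDAC2 and 2.92% for RNAPII-pS5. With any peak within 1000 bp, the share of members with a promoter peak was 44.5% for RNAPII-pS2, 88.3% for H3K27Ac, 56.2% for p300, 39.4% for HDAC1 and 23.4% for RNAPII-pS5. Without 1 sample at a time, the lowest and highest numbers of members called were 2 to 3 for H3K27Ac, 9 to 36 for RNAPII-pS5 (LPS), 0 to 11 for RNAPII-pS5 (24 hr IL-4), 0 to 10 for RNAPII-pS5 (IL-4 PT under LPS), 0 to 5 for RNAPII-pS5 (interaction), 15 to 30 for RNAPII-pS2 (LPS), 3 to 10 for RNAPII-pS2 (24 hr IL-4), 1 to 3 for RNAPII-pS2 (IL-4 PT under LPS), 0 for RNAPII-pS2 (interaction), 1 to 5 for p65 (LPS) and 0 to 12 for p65 (IL-4 PT under LPS). The median log2 change then ran from −0.0482 to −0.0179 for H3K27Ac, −0.43 to 0.026 for HDAC1, −0.22 to 0.0213 for PU.1, −0.11 to 0.0888 for RNAPII-pS2, −1.37 to −0.93 for RNAPII-pS5 (LPS), −0.27 to 0.17 for RNAPII-pS5 (IL-4 PT under LPS), −0.0124 to 0.39 for RNAPII-pS5 (interaction), 0.50 to 0.59 for RNAPII-pS2 (interaction), −0.0393 to 0.21 for p300 and −0.77 to 0.13 for p65 (LPS). Changes that reversed without 1 sample ran from −0.12 to 0.95 at Zfp526 for HDAC1, −0.0646 to 1.29 at Zfp558 for HDAC2, −2.29 to 0.0418 at Zfp35 for RNAPII-pS2 and −0.0342 to 2.29 at Zfp809 for p300. The share of members with a peak in every sample ran from 43.8 to 70.1% for p300 and 18.98 to 26.3% for HDAC1.

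Replicate numbers did not pair the samples: the correlation of same-numbered samples' deviations from their group means ran from −0.049 to 0.088 over pairs of groups. With the replicate number as a block, the members called numbered 4 for H3K27Ac, 7 for RNAPII-pS5 (24 hr IL-4), 2 for RNAPII-pS5 (IL-4 PT under LPS), 0 for RNAPII-pS5 (interaction), 2 for RNAPII-pS2 (IL-4 PT under LPS), 0 for RNAPII-pS2 (interaction) and 3 for p65 (LPS). The block moved no other count of members called by more than 1.5 times.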

Other observations

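At Zfp619, which had 1 of the highest RNAPII-pS5 scores of the 1 hr experiment, the promoter-TSS peak was absent in both ctrl/LPS samples, while its highest peak within 1000 bp scored 41.55 and 30.59 in ctrl/ctrl, 36.48 and 41.8 in IL-4 PT/ctrl, 21.11 and 23.26 in ctrl/LPS, and 33.89 and 37.28 in IL-4 PT/LPS. The ctrl/LPS samples were the lowest, and a peak within 1000 bp was listed in all of these samples. Zfp558 had its RNAPII-pS2 sum lowest in ctrl/ctrl (17.85 and 23.41) and highest in IL-4 PT/LPS (76.45 and 81.62), with 52.9 and 60.14 in IL-4 PT/ctrl and 58.1 and 61.38 in ctrl/LPS. Both genes were chosen after their values were seen.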
